A study of Mus musculus with 2 samples.

Results

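The 42 genes described here encode Polycomb and Trithorax proteins, chromatin remodellers, histone acetylases and enzymes that write or remove DNA methylation. They were chosen by name, by GENCODE symbol of the gene ID, by a rule that reads no measured value, though the list was drawn up with earlier results of these data known, and all 42 were found among the 43346 gene rows of the deposited tables. RNA longer than 200 nt was sequenced from the facial prominence of mouse embryos at 13.5 days of development, the tissue that forms the jaws, palate and nose. Both libraries came from B6NCrl mice, from 10 ng of RNA each, with male and female embryos pooled and no treatment or mutation named. They are biological replicates 1 and 2 of a single group, so the design holds no contrast between conditions, and no p-value is given. The labels name separate samples for the replicates but a single donor entry, so the spread between them may be partly technical.

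Polycomb and Trithorax proteins keep developmental genes off or on through cell division. Polycomb repressive complex 2 (PRC2) methylates histone H3 at lysine 27, and Polycomb repressive complex 1 (PRC1) ubiquitinates histone H2A and compacts chromatin. Trithorax-type methylases mark H3 at lysine 4, BAF and CHD proteins move nucleosomes with energy from ATP, DNMT enzymes methylate cytosine in CpG dinucleotides, and TET enzymes oxidise the methyl group. Mutations in several of the human genes cause syndromes with facial features, among them Chd7 in CHARGE syndrome, Kmt2d and Kdm6a in Kabuki syndrome, Crebbp and Ep300 in Rubinstein-Taybi syndrome and Nsd1 in Sotos syndrome.

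The expected counts, which are estimates that share reads among transcripts, summed to 30451502 in replicate 1 and 23777465 in replicate 2. Added spike-in RNA took 6.27% and 4.45% of these counts. The tissue label was checked against marker genes. All 8 facial mesenchyme markers, among them Msx1 and Alx1, and all 6 epithelial markers reached a level of 1 TPM, the length-scaled share of transcripts, in both libraries. So did all 4 markers each of cartilage, muscle, neurons, endothelium, erythroid cells and macrophages, and 60.9% of all protein-coding genes. Reaching this level therefore does not single out facial tissue. Markers of liver and heart did not match between the libraries. The summed level of the 8 liver markers was 4.15 TPM in replicate 1 and 278 TPM in replicate 2, with every marker higher in replicate 2, and Fgb was listed at 0 in replicate 1. The summed level of the 5 heart markers was 2.64 TPM in replicate 1 and 25.2 TPM in replicate 2. In bulk tissue, fewer cells of a type and less RNA per cell cannot be told apart.

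Promoter windows from RefSeq (build GRCm38.p6, 250 bases before to 50 bases after an annotated start) were matched for 35 of the 42 genes and gave 46 windows. Sequences are printed to show the sequence class most of these promoters share and its exception: the highest gene by TPM, the lowest gene, and the upstream and downstream starts of Dnmt3a. Each is written 5' to 3' on the strand of the gene, and capitals mark each CpG dinucleotide.
Smarcb1, chr10:75921565-75921864, minus strand: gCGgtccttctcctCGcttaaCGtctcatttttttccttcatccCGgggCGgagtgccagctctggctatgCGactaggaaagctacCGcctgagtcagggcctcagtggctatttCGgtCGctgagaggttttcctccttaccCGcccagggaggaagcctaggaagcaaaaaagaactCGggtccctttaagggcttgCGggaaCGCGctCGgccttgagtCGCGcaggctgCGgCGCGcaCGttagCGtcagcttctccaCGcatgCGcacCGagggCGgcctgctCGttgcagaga
Cbx7, chr15:79932597-79932896, minus strand: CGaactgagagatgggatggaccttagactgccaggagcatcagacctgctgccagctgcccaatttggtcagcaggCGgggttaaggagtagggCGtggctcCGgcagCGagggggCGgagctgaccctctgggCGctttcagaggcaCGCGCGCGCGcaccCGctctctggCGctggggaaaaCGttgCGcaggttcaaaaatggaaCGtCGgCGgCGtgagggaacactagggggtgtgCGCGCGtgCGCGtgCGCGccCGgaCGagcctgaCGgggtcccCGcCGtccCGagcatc
Dnmt3a upstream start, chr12:3806730-3807029, plus strand: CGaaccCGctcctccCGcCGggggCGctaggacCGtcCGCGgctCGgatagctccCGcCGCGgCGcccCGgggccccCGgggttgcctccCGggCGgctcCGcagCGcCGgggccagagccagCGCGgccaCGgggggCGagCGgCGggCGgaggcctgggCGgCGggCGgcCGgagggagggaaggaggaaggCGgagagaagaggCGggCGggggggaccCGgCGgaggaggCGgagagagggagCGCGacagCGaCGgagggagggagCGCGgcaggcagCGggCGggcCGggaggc
Dnmt3a downstream start, chr12:3891494-3891793, plus strand: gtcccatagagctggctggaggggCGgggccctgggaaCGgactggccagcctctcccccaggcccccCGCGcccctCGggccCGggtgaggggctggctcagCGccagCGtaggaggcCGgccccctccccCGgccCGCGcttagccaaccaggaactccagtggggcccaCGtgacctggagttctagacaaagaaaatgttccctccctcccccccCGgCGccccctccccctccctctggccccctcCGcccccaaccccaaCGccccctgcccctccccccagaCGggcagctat
The ratio of observed to expected CpG was 0.98 for Smarcb1, 0.99 for Cbx7, 0.96 for the upstream start of Dnmt3a and 0.47 for its downstream start. The highest and the lowest gene therefore carried promoter windows with nearly equal ratios, though the window of Smarcb1 held 27 CpG and that of Cbx7 33. Over the 46 windows the ratio was at least 0.6 in 38, or 82.6%, against 35.8% of all 32841 windows in the table. The median ratio was 0.81 for the windows of these genes and 0.38 over all windows, and the median GC content was 69.5% against 52.7%. The all-window figures include genes that are not expressed in this tissue.

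All 42 genes were detected, defined as at least 1 TPM in both libraries. Among all 21474 protein-coding genes 60.9% met the same rule. The median level of the 42 genes was 18.3 TPM in replicate 1 and 21.6 TPM in replicate 2. Their median over both libraries was 19.8 TPM, close to the 18.9 TPM of the 13078 detected protein-coding genes. Of the 42, 23 lay above that median, 7 lay in the top 25% of detected genes and 4 in the bottom 25%. Levels ran from 1.87 to 188 TPM, and 7 genes exceeded 50 TPM in both libraries while 5 stayed under 10 TPM in both. Levels are compared between genes on the TPM scale, which divides by transcript length.

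**Figure D1:**
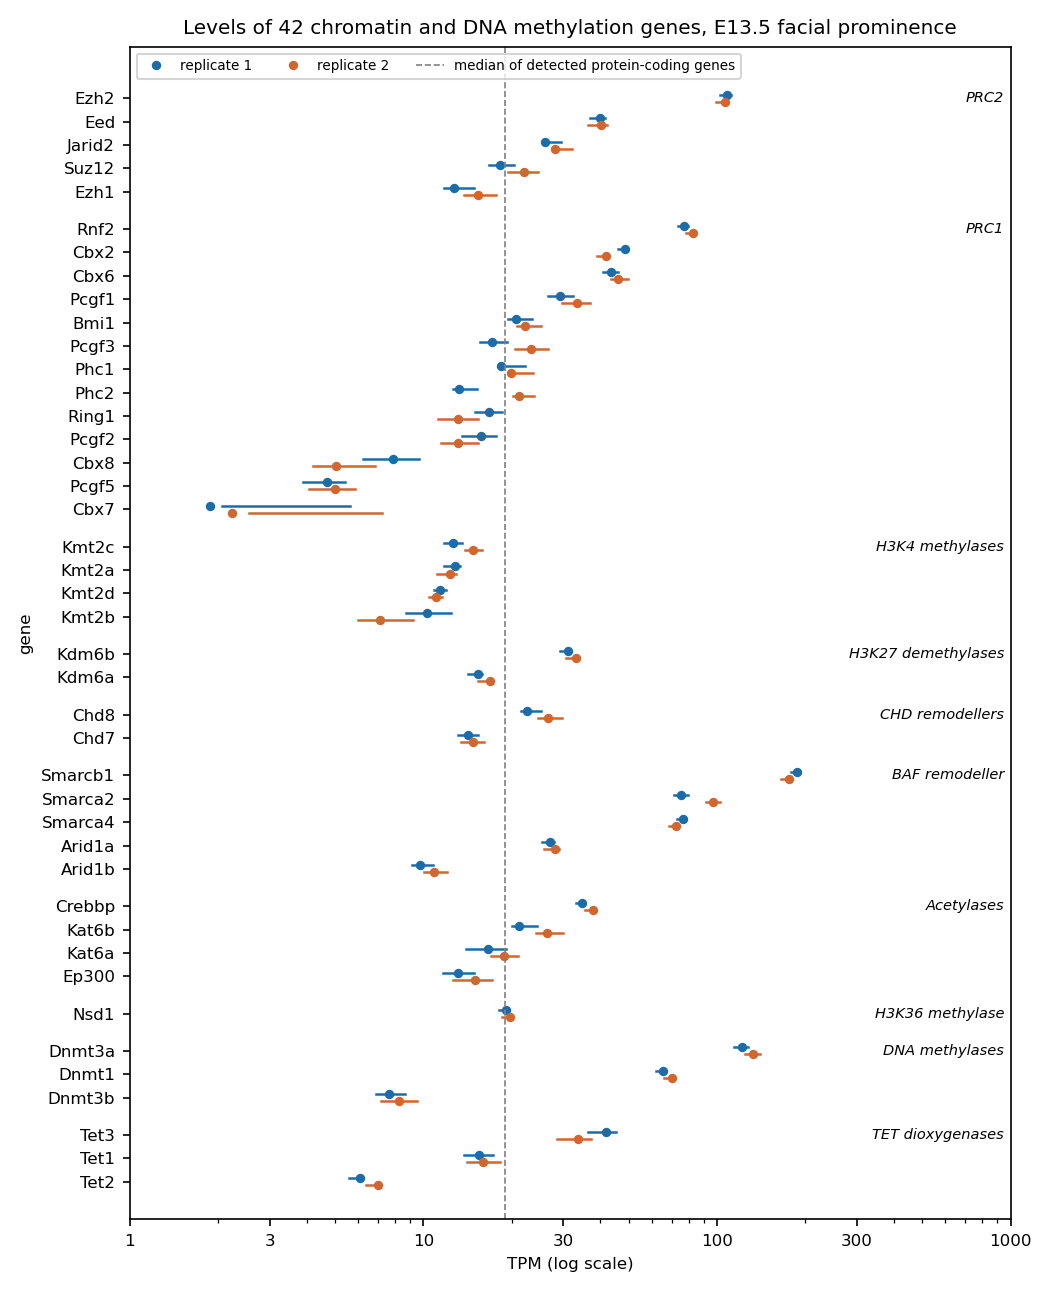
Level of each of the 42 genes in TPM (log axis) in replicate 1 (blue) and replicate 2 (orange), grouped by role. Points are TPM, horizontal lines the deposited credibility bounds, and the dashed line the 18.9 TPM median of detected protein-coding genes. Smarcb1 lies farthest right at 188 and 176 TPM and Cbx7 farthest left at 1.87 and 2.23 TPM, outside its own bounds.

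Most neighbours in the order of levels could not be separated. The deposited tables give credibility bounds for each TPM value, and 2 genes are called apart where these bounds did not overlap in either library and the order was the same in both. Of the 41 neighbouring pairs in the order, 4 were apart: Smarcb1 above Dnmt3a, Dnmt3a above Ezh2, Dnmt1 above Cbx2, and Crebbp above Kdm6b. For 6 of the 42 genes the TPM lay outside its bounds in at least 1 library, so the bounds are not centred on the TPM. Ranks among the 42 genes moved by 3 places or fewer between libraries for 35 genes and by at most 8 places.

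The PRC2 genes had a median of 26.97 TPM and were led by the methylase Ezh2. Ezh2 stood at 109 TPM in replicate 1 and 107 TPM in replicate 2. Ezh1, its paralog and alternative catalytic subunit, stood at 12.7 and 15.3 TPM. Ezh2 therefore supplied 88.5% ± 1.5 (SD, n = 2) of the TPM of both EZH genes, and the log2 ratio of Ezh2 to Ezh1 was 2.95 ± 0.21 (SD, n = 2), a 7.71-fold difference with bounds apart in both libraries. The core subunits Eed and Suz12 were lower and unequal. Eed, which reads the methylated lysine, stood at 40.0 and 40.2 TPM. Suz12, the scaffold, stood at 18.3 and 22.0 TPM, and its log2 ratio to Eed was -1.001 ± 0.18, and -1.67 over protein-coding transcripts alone. Jarid2, an accessory subunit that helps bring PRC2 to its targets, stood at 25.9 and 28.0 TPM.

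Among the 13 PRC1 genes, whose median was 19.1 TPM, the ubiquitin ligase Rnf2 was the highest. Rnf2 stood at 77.1 and 83.0 TPM, while its paralog Ring1 stood at 16.7 and 13.1 TPM. Rnf2 made up 84.3% ± 3.0 of the TPM of this pair, and the log2 ratio was 2.43 ± 0.32. Rnf2 shares 158 nt of exon with the opposite-strand gene Trmt1l, which stood at 38.1 and 39.4 TPM. The labels and headers used here do not state whether counting used strand, and the part of such overlaps was not tested.

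The PCGF proteins partner the ligase and define which PRC1 form it joins. Pcgf1, of the variant complex with Kdm2b and Bcor, was the highest of them by TPM, at 29.2 and 33.3. Its expected counts, not divided by length, were 436 and 380, below Pcgf3 at 2134 and 2005 and Bmi1 at 1338 and 1150. They were above those of Pcgf2, at 435 and 305. Bmi1 and Pcgf2, the alternative partners in canonical PRC1, stood at 20.7 and 22.2 TPM and at 15.7 and 13.1 TPM, respectively. Both partners were thus present at levels 1.49-fold apart on average, with Bmi1 higher in each library. Pcgf3 stood at 17.1 and 23.3 TPM and Pcgf5 at 4.68 and 4.99 TPM, a log2 ratio of 2.05 ± 0.25. Pcgf5 rested on 142 and 118 expected counts, the second being the lowest count of any of the 42 genes.

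The CBX proteins bind methylated lysine 27 and bring canonical PRC1 to chromatin marked by PRC2. Cbx2 and Cbx6 made up most of the TPM of the 4 listed CBX genes. Cbx2 stood at 48.7 and 41.8 TPM and Cbx6 at 43.6 and 46.2 TPM. Their shares of the TPM of the 4 genes were 45.8% ± 2.7 and 45.6% ± 4.1, so neither led in both libraries. Cbx8 stood at 7.85 and 5.03 TPM and Cbx7 at 1.87 and 2.23 TPM, and those 2 were not apart in both libraries. Cbx7 lay below Cbx2 by a log2 ratio of 4.47 ± 0.33 and below Cbx6 by 4.46 ± 0.12. It shares 100 nt with the opposite-strand gene Apobec3, at 17.4 and 18.1 TPM. Cbx2 and Cbx8 lie 5034 bases apart on mouse chromosome 11 and differed by a log2 ratio of 2.84 ± 0.30 (3.70 over protein-coding transcripts alone), while Cbx6 and Cbx7 lie 81118 bases apart on chromosome 15. Both neighbouring CBX pairs thus held unequal levels. The polyhomeotic proteins Phc1 and Phc2, which let PRC1 polymerise, stood at 18.4 and 19.9 TPM and at 13.3 and 21.2 TPM, in opposite order in the 2 libraries.

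The 4 lysine 4 methylases had a median of 11.9 TPM, the lowest of the roles with more than 1 gene, and spanned 7.10 to 14.8 TPM. Kmt2a stood at 12.8 and 12.3 TPM and Kmt2b at 10.3 and 7.10 TPM; these are the MLL-type enzymes recruited to promoters. Kmt2c stood at 12.6 and 14.8 TPM and Kmt2d at 11.4 and 11.1 TPM; these act mainly at enhancers. Neither pair was apart in both libraries. Kmt2a exceeded Kmt2b by 1.47-fold on average, with bounds apart in replicate 2 only. The size of this gap depended on the transcripts counted. Over protein-coding transcripts alone the log2 ratio of Kmt2a to Kmt2b was 1.42 in replicate 1 and 1.47 in replicate 2, against 0.55 ± 0.34 over all transcripts. A retained-intron form of 571 nt held 44.4% and 27.7% of the Kmt2b TPM. Their long transcripts gave many reads at these levels: Kmt2d carried 4696 and 3521 expected counts.

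The lysine 27 demethylases, which undo the PRC2 mark, were unequal. Kdm6b stood at 31.1 and 33.1 TPM and the X-linked Kdm6a at 15.3 and 16.8 TPM, a log2 ratio of Kdm6a to Kdm6b of -0.999 ± 0.03. Uty, the Y-linked paralog of Kdm6a, stood at 13.0 and 13.0 TPM in these libraries from pooled sexes. The log2 ratio of Ezh2 to Kdm6a was 2.74 ± 0.11.

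Remodellers of the BAF complex were the highest group, with a median of 74.7 TPM. Smarcb1, a core subunit, stood at 188 and 176 TPM, the highest of all 42 genes in both libraries. The alternative ATPases Smarca4 and Smarca2 stood at 76.8 and 72.6 TPM and at 75.5 and 97.0 TPM, and their order turned between libraries. Over protein-coding transcripts alone Smarca4 was the higher in both, by a log2 ratio of 0.86 and 0.49. Smarcb1 exceeded Smarca4 by a log2 ratio of 1.28 ± 0.01 in TPM, but without division by length Smarca4 had more reads, with 9008 and 6534 expected counts against 6416 and 4643. Arid1a and Arid1b, alternative DNA-binding subunits, stood at 27.1 and 28.0 TPM and at 9.76 and 10.8 TPM, a log2 ratio of 1.42 ± 0.07. Among the CHD remodellers, Chd8 stood at 22.6 and 26.7 TPM and Chd7 at 14.2 and 14.7 TPM. With protein-coding transcripts alone the log2 ratio of Chd7 to Chd8 was 0.015, against -0.76 ± 0.13 with all transcripts. It was 0.041 in replicate 1 and -0.011 in replicate 2, and -1.34 by counts not divided by length. Shorter forms held most of the Chd7 TPM. Chd7-203, with a coding sequence of 1894 nt, held 61.9% and 54.7%, and Chd7-202, with 8958 nt, held 11.4% and 15.1%. Of Chd7-203, 0 nt lie in no other transcript of the gene, against 505 nt of Chd7-202. How far these shares rest on the estimated sharing of reads was not tested.

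The acetylases had a median of 20.8 TPM. Crebbp stood at 34.8 and 37.7 TPM and Ep300 at 13.1 and 14.95 TPM; both are coactivators that acetylate enhancer histones, and their log2 ratio was 1.37 ± 0.05. Over protein-coding transcripts alone it was 2.34. Such transcripts made up 47.3% and 51.3% of the Ep300 TPM and 96.6% and 95.8% of the Crebbp TPM. Kat6b and Kat6a, catalytic subunits of the MOZ/MORF complexes, stood at 21.1 and 26.4 TPM and at 16.7 and 18.8 TPM. Their order turned when protein-coding transcripts alone were summed, to a log2 ratio of Kat6a to Kat6b of 0.42 from -0.42 ± 0.10. Nsd1, which methylates lysine 36, stood at 19.1 and 19.8 TPM.

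Among the DNA methylases, the de novo enzyme Dnmt3a exceeded the maintenance enzyme Dnmt1. Dnmt3a stood at 122 and 133 TPM, Dnmt1 at 65.4 and 70.1 TPM and Dnmt3b, the other de novo enzyme, at 7.64 and 8.25 TPM. The log2 ratio of Dnmt3a to Dnmt3b was 4.00 ± 0.01, a 16.0-fold difference, and that of Dnmt1 to Dnmt3a was -0.91 ± 0.02. Dnmt3a thus made up 62.7% ± 0.3 of the TPM of the 3 genes. Of the TET genes, Tet3 stood at 41.8 and 33.6 TPM, Tet1 at 15.5 and 16.0 TPM and Tet2 at 6.07 and 7.01 TPM. Tet3 was apart from both others in both libraries, with a log2 ratio to Tet2 of 2.52 ± 0.37 (1.89 over protein-coding transcripts alone).

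Of the 28 pairs of related genes compared, 23 were apart in both libraries, and in 22 of these the mean log2 ratio exceeded 3 SD of the 2 libraries. The 5 that were not apart were Cbx7 with Cbx8, Phc1 with Phc2, Kmt2a with Kmt2b, Kmt2c with Kmt2d, and Smarca4 with Smarca2. The sign was the same in both libraries for 26 pairs.

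**Figure D2:**
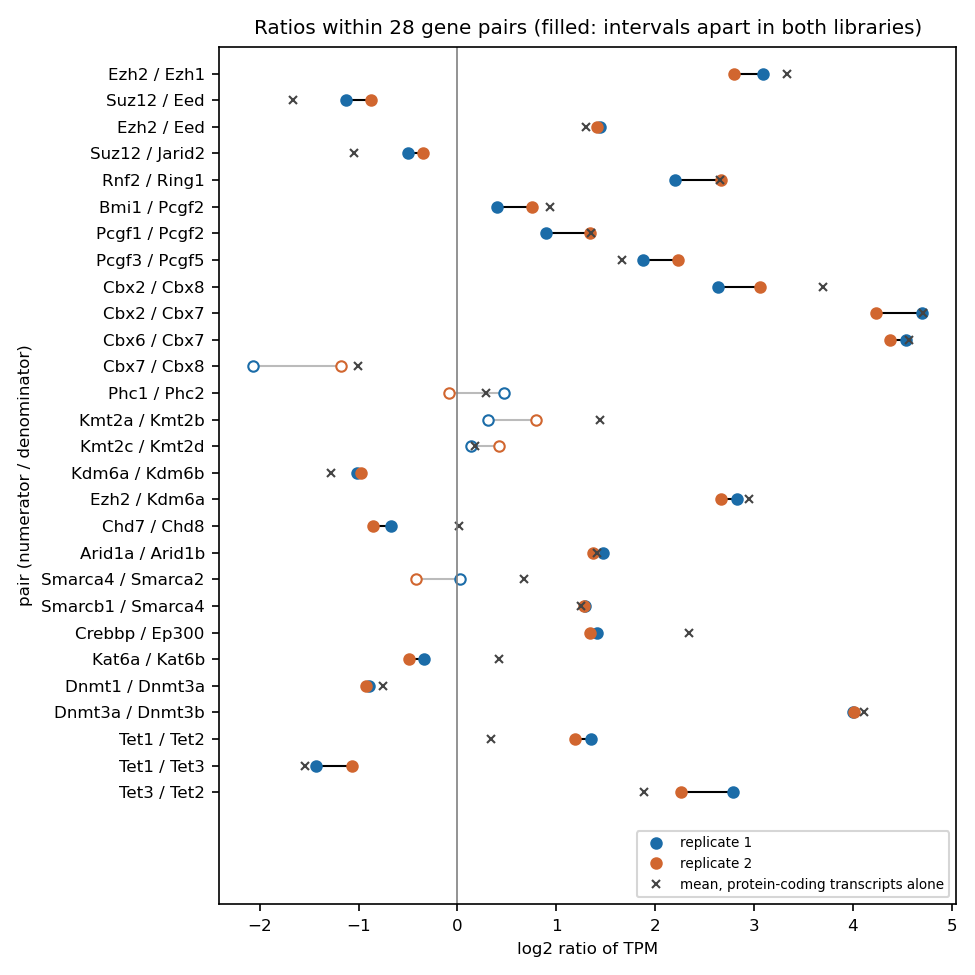
Log2 ratio of TPM within each of the 28 pairs, numerator first, in replicate 1 (blue) and replicate 2 (orange). Filled points mark the 23 pairs apart in both libraries, and crosses give the mean ratio from protein-coding transcripts alone, which lies on the other side of 0 for Chd7 with Chd8, Kat6a with Kat6b and Smarca4 with Smarca2.

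The libraries were compared gene by gene on expected counts scaled by TMM, a trimmed-mean scaling, with replicate 2 over replicate 1. None of the 42 genes differed by 1.5-fold or more. Of the 12730 genes with a mean count of at least 100, 2.40% were higher and 0.786% were lower by that measure. Phc2 came nearest, at 1.45 (exact 95% counting interval 1.31 to 1.60), followed by Ring1 at 0.712 (0.626 to 0.808) and Cbx2 at 0.812 (0.772 to 0.855). The interval left out a ratio of 1 for 14 of the 42 genes, or 33.3%, against 44.2% of the 12730 genes. The libraries therefore differed beyond counting error and were treated as separate samples. The intervals cover counting error only. The median absolute log2 ratio was 0.09 for the 42 genes and 0.11 for all genes tested. The liver and heart markers that were higher in replicate 2 moved in the same comparison, and their part in these ratios was not tested. With spike-in counts as the scale, all genes shifted by 0.56 on the log2 scale, and 15 of the 42 genes, or 35.7%, were higher in replicate 2 by 1.5-fold against 36.6% of all genes.

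**Figure D3:**
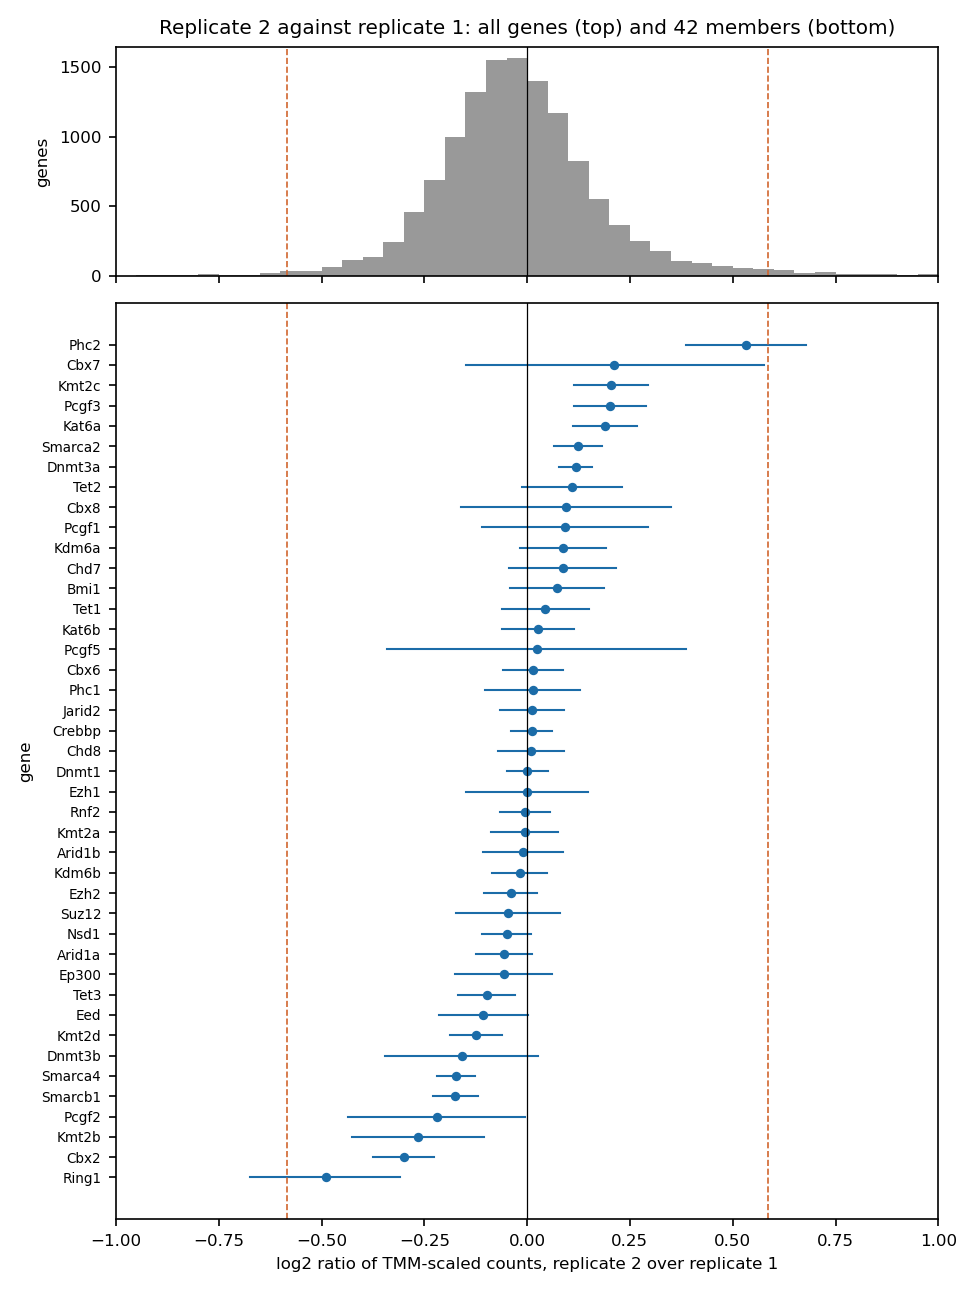
Log2 ratio of replicate 2 to replicate 1 on TMM-scaled expected counts, for the 42 genes and for the 12730 genes tested. The 42 genes stay between -0.49 and 0.53, and 162 genes fall outside the plotted range.

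Transcript tables give estimates of how each level was shared among annotated forms. In 38 genes with more than 1 transcript and at least 5 TPM in both libraries, the leading transcript was the same in both for 32, or 84.2% (Wilson 95% interval 69.6 to 92.6%), against 91.7% of 7940 genes meeting the same rule. It differed for Cbx8, Kat6b, Kmt2b, Smarca2, Suz12 and Tet3. Protein-coding transcripts made up a median 89.2% of TPM for the 42 genes and 97.8% for detected protein-coding genes. The share was under 60% in both libraries for Smarca2, Kat6b, Tet1 and Ep300. For Tet1 the leading form was the non-coding Tet1-202, at 45.0% and 49.8%, while the transcript with the full 6117 nt coding sequence, Tet1-206, held 28.0% and 28.3%. For Smarca2, the full-length Smarca2-201 held 35.1% and 31.4%, and the nonsense-mediated decay form of 1460 nt held 27.6% and 34.1%. Each of these forms has 0 nt that lie in no other transcript of the gene. The TPM of the gene was 75.5 and 97.0, while the ratio of scaled counts was 1.09.

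Transcripts were grouped by start site, chaining starts within 500 bases. Of the 42 genes, 37 had more than 1 such group, the leading group was the same in both libraries in 34, and its median share was 77.7%. It was the most upstream group in 22 genes and a downstream one in 15. Annotated starts include those of partial and non-coding forms. The leading start of Kmt2b by mean share was that of the retained-intron form of 571 nt. That of Tet1 was the start of the non-coding Tet1-202. Over protein-coding transcripts alone, 24 genes had more than 1 group, and the leading one was the most upstream in 11 and downstream in 13. The tallies cover different genes, since genes with a single group of protein-coding transcripts drop out. Over protein-coding transcripts the leading group of Kmt2b and of Tet1 was the most upstream. In Dnmt3a the leading group was downstream by both tallies. The start at chr12:3891728-3891744 held 50.8% and 53.8% of its TPM (52.3% ± 2.1), through Dnmt3a-205 and Dnmt3a-203, each with a coding sequence of 2067 nt. The start of Dnmt3a-201, with a coding sequence of 2724 nt, held 25.5% and 26.1%. The shorter protein, known as Dnmt3a2, lacks part of the amino terminus and is abundant in mouse embryonic stem cells. The leading start is the CpG-poorer of the Dnmt3a windows printed above. By expected count its share was 35.6%, so the order on this gene depends on division by transcript length.

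Dnmt1 also had its leading start downstream, at 72.7% and 71.1%, mostly through Dnmt1-201, with a coding sequence of 4860 nt. The upstream Dnmt1-202, with a coding sequence of 4503 nt, held 27.3% and 28.9%, and 156 nt of it lie in no other transcript of the gene. In Phc2, the short Phc2-202, with a 969 nt coding sequence, held 64.4% and 77.2%, against 14.8% and 4.59% for Phc2-201, with 2550 nt. Of Phc2-202, 0 nt lie in no other transcript of the gene, and of Phc2-201, 36 nt. In Pcgf5 the upstream start held 48.5% in replicate 1 and 0.802% in replicate 2, the widest difference described here, in a gene of low counts.

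**Figure D4:**
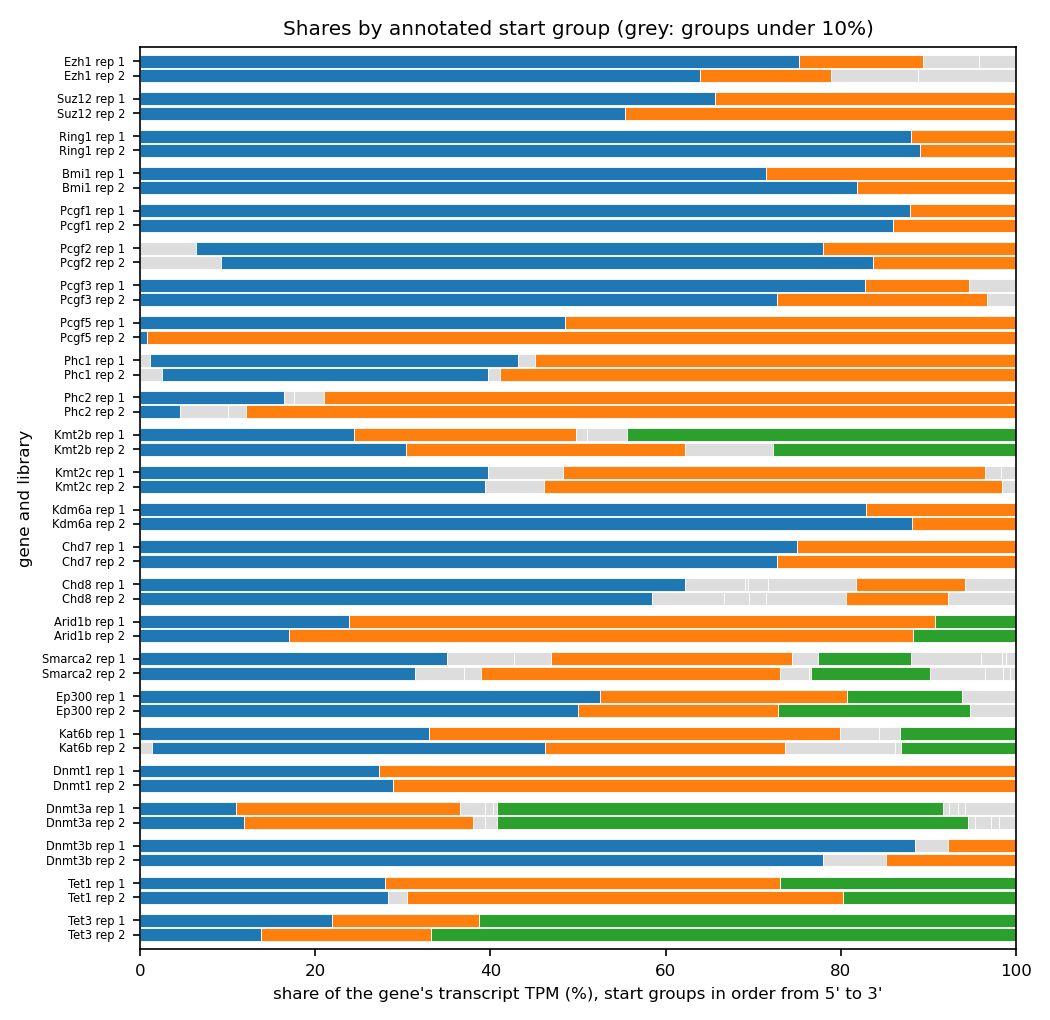
Share of each gene's transcript TPM by start group, from 5' to 3', in each library, for the genes with more than 1 group of at least 10%. Blue, orange and green mark, in that order from 5', the groups with a mean share of at least 10%, and grey marks smaller groups. In Dnmt3a the green group, downstream, holds 50.8% and 53.8%.

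The promoter windows were searched on both strands for exact motifs of E2F, NRF1, ETS (CCGGAAGT) and CRE (TGACGTCA) and for the TATA box TATAAA. E2F motifs, TTTCGCGC or TTTGGCGC, were present in 2 of the 46 windows, 1 of Ezh2 and 1 of the 3 of Dnmt1, or 4.35% against 0.813% of all windows. The Dnmt1 window with the motif belongs to the start of Dnmt1-203, which held 2.00% and 2.08% of the TPM of the gene. The window of the leading Dnmt1-201 held no E2F motif. Both genes are known to be expressed in cycling cells. Both windows are printed 5' to 3' on the gene's strand with the motifs in capitals, E2F motifs on either strand and, in Dnmt1, the palindromic NRF1 motif.
Dnmt1, chr9:20952574-20952873, minus strand: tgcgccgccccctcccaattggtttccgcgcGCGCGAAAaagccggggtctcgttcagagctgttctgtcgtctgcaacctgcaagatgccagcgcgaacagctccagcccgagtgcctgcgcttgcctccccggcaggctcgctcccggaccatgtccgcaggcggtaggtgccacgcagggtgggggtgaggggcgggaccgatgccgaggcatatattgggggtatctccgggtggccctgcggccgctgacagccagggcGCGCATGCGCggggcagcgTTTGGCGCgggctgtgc
Ezh2, chr6:47594981-47595280, minus strand: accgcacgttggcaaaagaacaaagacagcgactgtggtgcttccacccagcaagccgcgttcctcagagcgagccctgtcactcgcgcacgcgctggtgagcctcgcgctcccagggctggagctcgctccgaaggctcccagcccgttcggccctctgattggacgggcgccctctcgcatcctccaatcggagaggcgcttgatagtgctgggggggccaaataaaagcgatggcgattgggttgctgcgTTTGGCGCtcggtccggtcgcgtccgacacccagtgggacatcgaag
Ezh2 stood at 109 and 107 TPM and Dnmt1 at 65.4 and 70.1 TPM, both above 50 TPM. All 8 cell cycle markers were detected, with Mki67 at 35.0 and 36.3 TPM, while 60.9% of all protein-coding genes met that rule. A link between the motifs, these levels and cycling cells was not tested. The NRF1 motif was in 2 windows, both of Dnmt1, or 4.35% against 0.971% of all windows. The ETS motif was in none, against 3.89% of all windows. The CRE motif was in 1, that of Cbx8, or 2.17% against a similar 1.79% of all windows. The TATA box was in 1, that of Jarid2, or 2.17% against 13.6% of all windows. All of these motifs but the TATA box hold a CpG, and the windows of these genes were richer in CpG than all windows. The part of CpG content in these shares was not tested. A match is a string in the window and does not show binding.

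The other genes of these pathways, 80 in a list drawn up by function, were detected in 79 cases, with a median of 31.8 TPM. Among all protein-coding genes 60.9% were detected, and the median of those detected was 18.9 TPM. The highest and lowest of each list are given. In PRC2 the histone chaperones Rbbp4 and Rbbp7 stood at 363 and 357 TPM and at 324 and 351 TPM. Both lay above each of the 5 PRC2 genes among the 42. Epop stood at 5.42 and 3.33 TPM and Phf19 at 2.65 and 2.93 TPM. In PRC1, Kdm2b stood at 48.2 and 50.4 TPM and Yaf2 at 35.4 and 45.1 TPM, and Phc3 was lowest at 6.03 and 7.18 TPM. In BAF, Smarce1 reached 229 and 255 TPM and Actl6a 142 and 127 TPM, whereas Dpf3, known from muscle, stood at 2.26 and 2.99 TPM and Actl6b, known from neurons, at 3.16 and 1.62 TPM. In the lysine 4 methylase (COMPASS) complexes the shared subunits Dpy30, at 150.2 and 142 TPM, and Ash2l, at 90.7 and 84.4 TPM, led, and Paxip1, at 18.3 and 18.4 TPM, and the methylase Setd1b, at 7.22 and 7.45 TPM, were lowest. Dpy30 and Ash2l thus lay above the 4 catalytic KMT2 genes in both libraries. Among other CHD genes Chd3 stood at 101 and 108 TPM and Chd4 at 67.5 and 63.4 TPM, against 7.30 and 7.44 TPM for Chd9 and 1.97 and 1.93 TPM for Chd5. Among lysine 36 methylases Nsd3 stood at 42.2 and 46.3 TPM, Nsd2 at 30.8 and 32.3 TPM, Ash1l at 19.8 and 20.9 TPM and Setd2 at 15.9 and 19.3 TPM. In acetylase complexes Ing4 stood at 149 and 136 TPM and Meaf6 at 59.8 and 54.5 TPM, and Brpf3 at 6.78 and 9.12 TPM and Kat2b at 3.82 and 2.83 TPM. Subunits without catalytic activity led the acetylase list. Of the H2A deubiquitinase genes, Bap1 stood at 69.9 and 69.3 TPM, Asxl2 at 15.9 and 17.6 TPM and Asxl1 at 10.9 and 11.5 TPM. In DNA methylation Mbd3 stood at 223 and 202 TPM and Tdg, a glycosylase that removes oxidised methylcytosine, at 117 and 118 TPM. Dnmt3l, the cofactor of de novo methylation in germ cells, was the only one not detected, at 0.33 and 0.43 TPM.

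Sequence identity limits the counts of a few genes. Transcripts of Bmi1, Crebbp, Kmt2d and Pcgf1 matched another locus at 95% identity or more over at least 200 nt, so their reads could be split. The pseudogene Gm5946, matching Bmi1 over 2658 nt, stood at 0.02 and 0.29 TPM.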

How the data were processed

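Total RNA was sequenced from 2 libraries of 1 group. Per the file headers, the authors' gene and transcript tables hold expected counts, TPM and FPKM with posterior means and credibility bounds, the level of which is not stated there. The sources used here name no quantification program. Per the labels the build was mm10, and the deposited notes name annotation M4. The credibility bounds of TPM, signal values computed by the authors on the TPM scale, were read as deposited and used as intervals. The feature lengths, computed by the authors and read as deposited in nt, were not used as score values. The deposited expected counts and TPM were read as they stand, and the deposited FPKM served only as an alternative to TPM for detection. Names and coordinates came from GENCODE M21, matched by gene ID without version for 42462 of 43346 gene rows. Members, lists and pairs were chosen with earlier results of these data known.

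A gene counted as detected when neither library was under 1 TPM. Ratios between libraries used TMM scaling (edgeR 4.0.16) with a prior count of 1, a mean expected count of at least 100 and exact (Clopper-Pearson) 95% intervals, and DESeq2 1.42.0 size factors as an alternative. The ratio code was tested on simulated data. BLAST+ 2.17.0 searched for near-identical transcripts. Named genes were all 42 members and the 2 highest and 2 lowest of each other list, of which some are not reported here. Protein sequences were not used here.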

Additional observations from a re-analysis of the deposited data

How the results depend on the processing

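All 42 genes stayed detected with either replicate alone and by FPKM. Median level ran from 18.3 to 21.6 TPM with one replicate left out, and was 22.3 TPM rescaled without spike-ins and 15.2 TPM over protein-coding transcripts. Pairs in order numbered 25 to 26 with one replicate left out. Genes past 1.5-fold between libraries numbered 15 by spike-in scaling, and 2 at the lower fold tried, where 10.6% of all genes passed. The median leading start share was 74.7% with starts chained within 100 bases, 75.8% over protein-coding transcripts and 85.9% by expected count. The mean log2 ratio turned in 3 pairs over protein-coding transcripts, Chd7 to Chd8 (0.015), Kat6a to Kat6b (0.42) and Smarca4 to Smarca2 (0.67), and in 4 by counts not divided by length, Kat6a to Kat6b (0.31), Smarcb1 to Smarca4 (-0.49), Smarca4 to Smarca2 (0.69) and Kmt2c to Kmt2d (-0.99); the cause was not tested beyond that construction. The comparison of libraries and of leading transcripts needs both libraries and could not be recomputed without one. No paired analysis was possible because there is 1 group. Depth limits Cbx7 and Pcgf5, with under 150 expected counts a library.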
